A study of Mus musculus with 2 samples.

Results

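Dendritic cells made up 169 of 18753 cells that passed the quality filter in eYFP+ cells sorted from perigonadal white adipose tissue (gWAT) of Cyp1a1 fate reporter mice. They were chosen by detection of genes: a cell needed a UMI (1 counted RNA molecule) of at least 4 of the 12 genes Flt3, Zbtb46, Itgax, Itgae, Cd209a, Xcr1, Clec9a, Naaa, H2-DMb1, Irf8, Plbd1 and Jaml, and of at least 1 of Flt3 and Zbtb46. Cells with 3 or more of the macrophage genes C1qa, C1qb, C1qc and Pf4, or with 2 or more of the B cell genes Cd79a, Ms4a1, Pax5 and Bank1, were left out. The low-fat diet (LFD) library gave 86 such cells of 10216 and the high-fat diet (HFD) library gave 83 of 8537. Levels of the 12 chosen genes therefore describe the choice and are not results.

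All mice were males of the genotype Cyp1a1Cre x R26LSL-eYFP, in which Cre made where Cyp1a1 is active switches on eYFP permanently, so that a sorted cell or an ancestor of it had used Cyp1a1. Both groups were fed a purified diet for 12 weeks, with 10% fat in LFD and 60% fat in HFD, and both were injected with FICZ, which binds the aryl hydrocarbon receptor (AHR), at 10 mg/kg, with the tissue taken 5 days later. The study describes pooled mice for each diet, and 1 library was made per diet, so that diet, library and mouse cannot be told apart and no test between the diets was possible. The deposited matrices held 11281 barcodes and 114311020 UMIs in LFD and 9631 barcodes and 119498750 UMIs in HFD. The libraries shared 22 barcodes among kept cells, and 0 of these were dendritic cells. The median dendritic cell held 7810 UMIs and 2399 genes in LFD, and 9137 UMIs and 2590 genes in HFD. Intervals below are exact 95% intervals that cover counting error only, not differences between mice, and levels are summed UMIs per 1000000 summed UMIs (CPM).

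Dendritic cells take up antigen, load peptides on MHC molecules and present them to T cells, often after moving to a lymph node. Conventional dendritic cells depend on the cytokine receptor Flt3. Their type 1 subset (cDC1) needs the transcription factors Irf8 and Batf3, carries the chemokine receptor Xcr1 and the dead-cell receptor Clec9a, and is known for cross-presentation to CD8 T cells. The type 2 subset (cDC2) is marked by genes such as Cd209a, Clec10a and Sirpa. Activated, migrating dendritic cells gain Ccr7. AHR is a ligand-activated transcription factor that is present in several dendritic cell populations and induces Cyp1a1, Cyp1b1, Tiparp and its own repressor Ahrr.

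As a description of the choice, the median member had a UMI of 8 of the 12 genes in LFD and 9 in HFD. At the threshold, 12 LFD and 9 HFD members had exactly 4 genes, while 78 LFD and 135 HFD cells met the other criteria with 3. A small group went against the label. Members with at least 50 UMIs of a marker list of another cell class (stromal, mesothelial, endothelial, neutrophil, lymphoid or plasma cell) numbered 12 in LFD and 15 in HFD and are called mixed here. The stromal list (Pdgfra, Col1a1, Col1a2, Col3a1, Dcn, Lum, Dpt, Pi16) accounted for 8 and 13 of them. A wide gap set them off, since members not mixed had at most 11 stromal UMIs in LFD and 7 in HFD. Mixed members were large, with median UMI counts of 14682.5 and 22003, and held 23.8% and 38.3% of all UMIs of the members. The study excluded doublets, a step that was not repeated here, and the doublet caller Scrublet marked 6 LFD and 13 HFD members, of which 4 and 11 were mixed. In 5 LFD and 4 HFD members, all mixed with stromal genes, under 10 class II MHC UMIs and 0 UMIs of the leukocyte gene Ptprc were seen, so these cells lacked the defining features of a dendritic cell. Results are given below without mixed members, 74 LFD and 68 HFD cells, unless stated otherwise, and with them where the value differed. Mixed cells were not removed from macrophages, B cells or other kept cells. Comparisons of members not mixed with these classes are therefore uneven, above all for stromal genes.

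**Figure D1:**
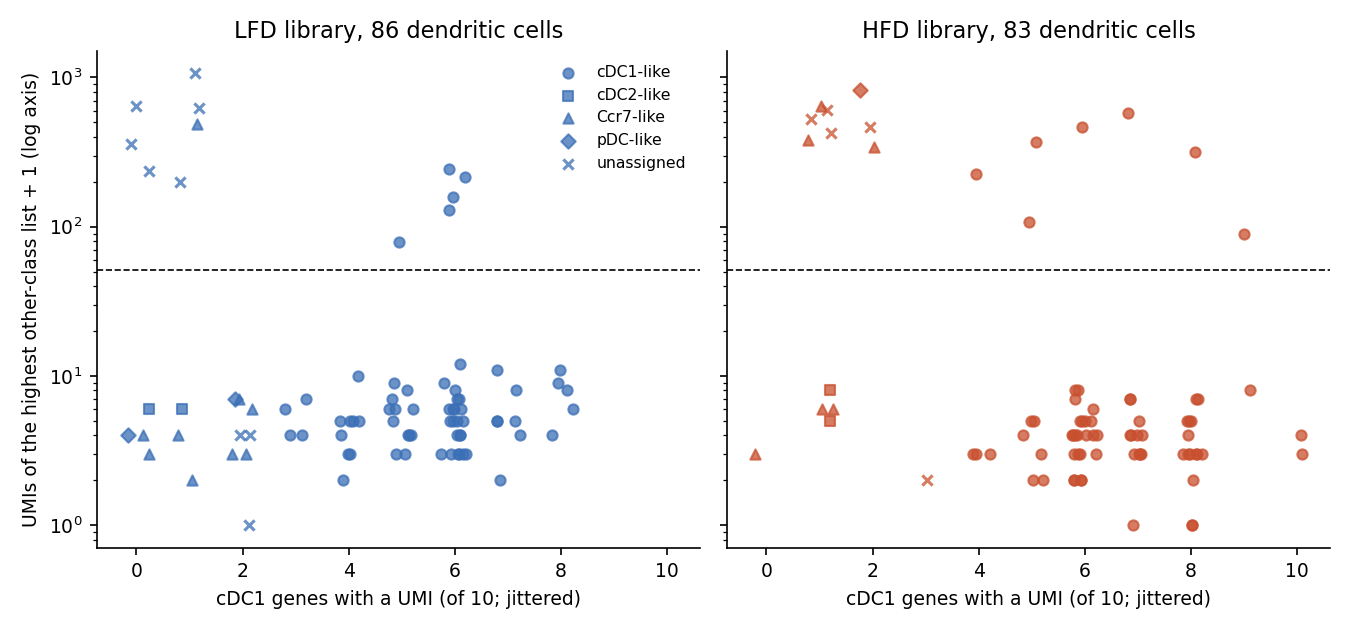
Each point is 1 of the 86 LFD or 83 HFD dendritic cells. The horizontal axis counts cDC1 genes with a UMI (of 10), the vertical log axis gives the UMIs (plus 1) of the highest marker list of another cell class, symbols show the subset, and the dashed line is the limit of 50 UMIs. The 12 LFD and 15 HFD mixed members lie above a gap that holds no cell.

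Markers of other cell types differed in level in members not mixed. Of 8 further B cell genes, 7 were at 0 in LFD and all 8 in HFD. A macrophage list of 10 genes summed to 110 LFD and 92 HFD UMIs (194.4 and 159.7 CPM), of which Cd68, a lysosomal protein also made by dendritic cells, held 99 and 85, while Mertk, Cd163, Trem2 and Folr2 were at 0 in both libraries. A monocyte list of 10 genes summed to 334 LFD and 340 HFD UMIs (590.4 and 590.2 CPM), of which Plac8 held 286 and 307, while Chil3 and Ace were at 0 in both libraries. A list of 10 T, NK and innate lymphoid cell genes summed to 14 LFD and 4 HFD UMIs, of which Il7r held 8 and 4, and Cd3e and Trac were at 0. The 8 plasma cell genes, Ighm and Igkc among them, summed to 519.7 CPM (LFD) and 1198 CPM (HFD). Sdc1 was at 0, and no member held more than 1 (LFD) or 4 (HFD) UMIs of the list once Ighm, Igkc and Xbp1 were set aside. Plasma cells made up 551 LFD and 1725 HFD cells of the same libraries. Stromal genes summed to 549.7 CPM and 345.4 CPM. The part of these sums in the results below was not tested.

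Of the genes most enriched over all other kept cells, the cDC1 genes Itgae, Xcr1 and Clec9a ranked 2, 3 and 4, but the rule used them. The highest genes that it did not use were Tlr12, Gm43914, Snx22, Mycl, Htr7, Ttc39a, Ccl17 and Ffar4. Among genes that the rule did not use, Tlr12, an endosomal receptor for profilin of parasites, was at 72.5 (LFD) and 90.3 CPM (HFD) against 0.0907 and 0.0892 CPM in the other cells. Snx22 was at 97.2 and 95.5 CPM against 0.299 and 0.223 CPM. Mycl, a MYC family factor used by dendritic cells, was at 86.6 and 112.8 CPM. Batf3 and Wdfy4 are given as genes of the cDC1 list and not for their rank, which was 25 for Batf3. Batf3 stood at 185.6 CPM (interval 151.8–224.7) with LFD and at 163.2 CPM (131.9–199.7) with HFD and was seen in 71.6% and 70.6% of the cells. Wdfy4, required for cross-presentation by cDC1, was at 551.5 CPM (492–616.2) and 835 CPM (762–913), 16.7 and 25.1 times its level in macrophages. Since the cells were chosen by correlated genes, these ratios describe the population and were not tested.

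By the number of subset genes detected, 64 LFD and 69 HFD members were cDC1-like, which is 74.4% (63.9–83.2) and 83.1% (73.3–90.5). Without mixed members, cDC1-like cells were 59 of 74 (79.7%, 68.8–88.2) and 62 of 68 (91.2%, 81.8–96.7). These intervals overlapped, and requiring 3 of the 12 genes gave 39.0% and 31.6%, the opposite order. Only 2 cells in each library were cDC2-like, 2 LFD and 1 HFD cells were pDC-like, and 9 LFD and 6 HFD cells were Ccr7-like (8 and 3 without mixed members). The rule favours cDC1, since Xcr1, Clec9a, Itgae, Naaa and Irf8 are among its 12 genes and a single cDC2 gene, Cd209a, is. Cells with at least 4 cDC2 genes and at least 10 H2-Aa UMIs were found mainly outside it: 45 LFD and 95 HFD cells fell among the macrophages and 13 and 16 among the other cells, and 0 of the latter had Flt3 or Zbtb46. Such cells need not be cDC2, as macrophages share the list: 6 of 7 of its genes compared were at least 2-fold lower in members. A Cd209a UMI was seen in only 5 LFD and 11 HFD macrophages. The share of cDC1 in all dendritic cells of the tissue can therefore not be read from these counts.

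**Figure D2:**
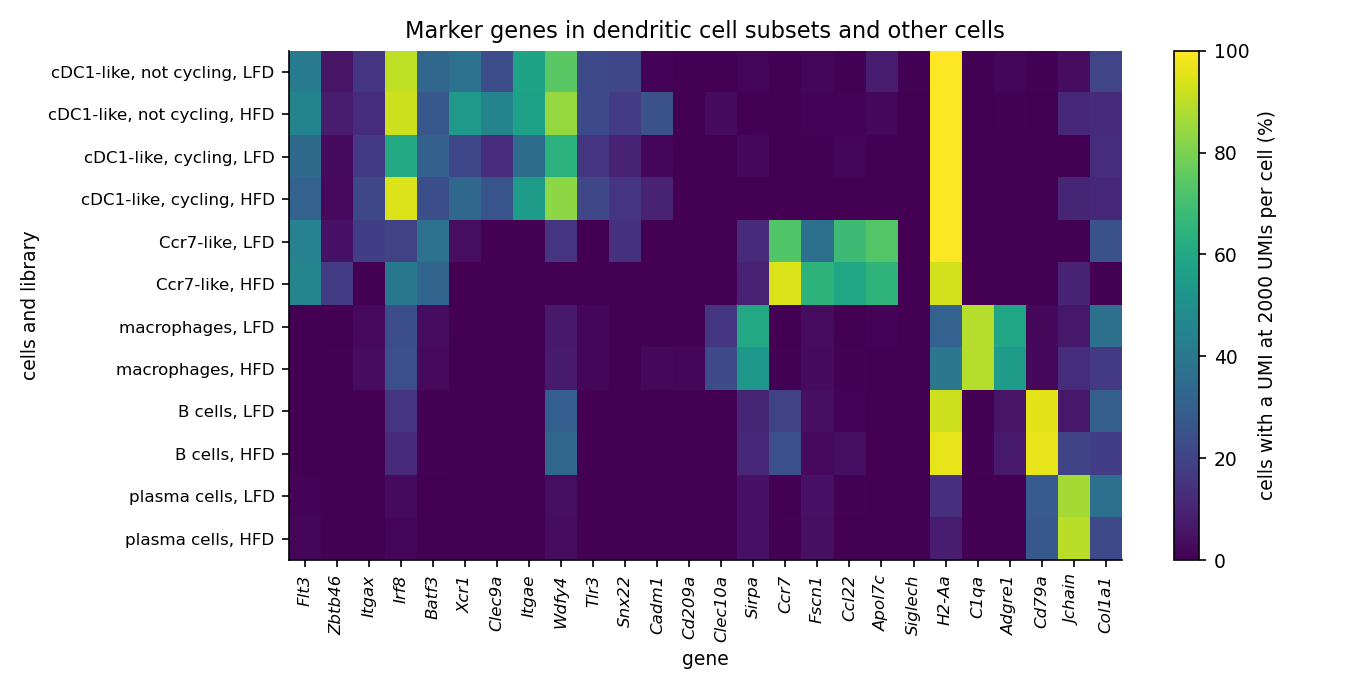
The colour gives the percent of cells with a UMI of each gene once every cell is brought to 2000 UMIs, for dendritic cell subsets without mixed members and for other cell classes, by library. Xcr1, Clec9a, Itgae and Wdfy4 mark cDC1-like cells, Ccr7, Fscn1, Ccl22 and Apol7c mark Ccr7-like cells, and Cadm1 is seen most in cDC1-like HFD cells that were not cycling. These genes belong to the subset lists that assigned the cells, so their pattern is a description.

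Ccr7-like cells were few. Ccr7 itself, which directs cells to lymph nodes, the actin bundler Fscn1 and Il4i1 are among the genes that defined them, so their levels are a description. Ccr7 was at 1336 CPM in 8 LFD cells and 2471 CPM in 3 HFD cells, against 0 UMIs in the 59 and 62 cDC1-like cells. Il4i1, an amino acid oxidase whose products can bind AHR, was at 1622 and 1464 CPM in Ccr7-like cells and at 23.0 and 0 CPM in cDC1-like cells. Outside the subset lists, Relb, an NF-kB subunit, was at 739.3 and 686.3 CPM in Ccr7-like against 37.6 and 39.5 CPM in cDC1-like cells. Irf8, a gene of the rule and so only a description, was at 119.2 and 274.5 CPM in Ccr7-like against 1274 and 1559 CPM in cDC1-like cells. Ahr had 1 UMI in 8 LFD and 0 UMIs in 3 HFD Ccr7-like cells. With 11 such cells, single cells carried much of a value: 1 HFD member held 69.6% of the 158 Fabp5 UMIs of its library and 1 held 78% of the 50 Ccl17 UMIs.

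A minority of cDC1-like cells were cycling. At least 10 of 18 cell cycle genes were detected in 13 of 74 LFD cells (17.6%, 9.70–28.2) and 6 of 68 HFD cells (8.82%, 3.31–18.2), and the intervals overlapped. Of these, 11 and 6 were cDC1-like and 0 were Ccr7-like. Mixed members, left out here, also included cells with at least 10 of the genes, more in HFD than in LFD. With mixed members the shares of the libraries lie closer together. The threshold was chosen after the counts were seen, but few cells lay near it, as 3 LFD and 1 HFD cells had 5 to 9 of the genes. Cycling cells were deeper, with medians of 10928 and 13622.5 UMIs against 7179 and 7998 UMIs in the others. Summed over the members, all 18 genes had enough UMIs for a comparison of the diets, and 9 were at least 2-fold lower and 0 at least 2-fold higher in HFD, with a median log2 HFD to LFD ratio of -0.96 against 0.02 over all 5532 genes compared, of which 4.57% were at least 2-fold higher and 3.76% lower. With mixed members, 2 of the 18 were lower and 0 higher, with a median of -0.63. Nusap1, a spindle protein, had 27 LFD and 7 HFD UMIs (ratio 0.255, 0.0936–0.599). Stmn1, a microtubule regulator, had 166 and 83 UMIs (0.491, 0.373–0.643). Mki67, the common proliferation marker, had 60 and 59 UMIs (0.966, 0.663–1.41), an interval that includes 1. The list moved with the number of cycling cells, 13 and 6, whose part in these ratios was not tested.

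Antigen presentation genes were at the high levels known for dendritic cells and were similar in both diets. H2-Aa was at 9059 and 9816 CPM, H2-Ab1 at 10731 and 9412 CPM, and the invariant chain Cd74 at 19452.3 and 21375.5 CPM. Of 14 class II pathway genes compared with macrophages, with the rule's H2-DMb1 left out, 10 were at least 2-fold higher in dendritic cells in both libraries and 2 were at least 2-fold lower, against a background of 6.48% of 9218 genes higher and 19.8% lower (5.26% and 11.3% of 9426 with mixed members). H2-Aa was 11.2 and 8.08 times its macrophage level, the class II transactivator Ciita 17.6 and 11.1 times, and the lysosomal protease Lgmn 0.0548 and 0.0475 times. Against B cells, 7 of 15 were higher and 2 lower, with 7.47% and 13% of 10023 genes as background (6.7% and 7.12% of 10238 with mixed members). H2-DMb2 was among the lower, at 0.248 and 0.238 times its B cell level. In the MHC class I and cross-presentation list, 6 of 19 genes were higher and 2 lower than in macrophages. The peptide transporter Tap1 was 7.06 and 11.7 times and the immunoproteasome subunit Psmb9 9.17 and 9.02 times as high, while the oxidase subunit Cybb was at 0.0419 and 0.0127 times.

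Among innate receptors, Tlr3, the sensor of double-stranded RNA, was at 100.8 CPM (76.3–130.5) with LFD and at 121.5 CPM (94.7–153.5) with HFD, 11.7 and 17.2 times its macrophage level. Of 18 pattern receptor genes compared with macrophages, 2 were higher (Tlr3 and Tlr12), close to the background of 6.48%, and 9 lower against 19.8% of all genes, among them Tlr2 at 0.0256 and 0.0355 times. Of 17 lipid handling genes, 0 were higher and 13 lower than in macrophages, against the same background, with Cd36 at 0.0514 and 0.0997 times. Of 17 dendritic cell transcription factors that the rule did not use, 5 were higher (Batf3, Id2, Bcl11a, Cbfa2t3 and Runx3) and 3 lower (Zeb2, Klf4 and Tcf4). The background was again 6.48% higher and 19.8% lower, so the share lower was near it. Runx3 was 4.14 and 4.64 times its macrophage level, and Zeb2, a factor of cDC2, monocytes and pDC, 0.0191 and 0.0125 times.

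Ahr itself was higher in dendritic cells than in every other class measured. Ahr (chromosome 12, 35497974 to 35535038, minus strand, GRCm38) had 58 UMIs in 35 of 74 LFD cells, 102.5 CPM (77.9–132.5), and 86 UMIs in 43 of 68 HFD cells, 149.3 CPM (119.4–184.4). Macrophages held 18 CPM and 12.5 CPM, B cells 23.6 and 34.8 CPM, plasma cells 11.8 and 9.38 CPM, and the remaining cells, plasma cells included, 20.3 and 17.5 CPM. The dendritic cell intervals lay above those of each of these classes in both libraries. The ratio to macrophages was 5.71 (3.84–8.50) in LFD and 11.9 (8.38–17.1) in HFD. At 2000 UMIs per cell, which removes differences in depth, 17.8% and 26.7% of dendritic cells held an Ahr UMI against 3.38% and 3.12% of macrophages and 4.46% and 6.05% of B cells. With mixed members included, the levels were 87.6 CPM (67.6–111.6) and 114.6 CPM (93.9–138.4).

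Levels of AHR target genes differed from gene to gene. Cyp1a1 (chromosome 9, 57687928 to 57703824, plus strand), the gene whose past activity the sort selects for, had 1 UMI in 74 LFD cells and 2 UMIs in 68 HFD cells, 1.77 CPM (0.0447–9.85) and 3.47 CPM (0.42–12.5). With mixed members it had 6 and 7 UMIs, 8.08 and 7.49 CPM. Macrophages held 23.0 and 23.4 CPM and B cells 26.1 and 22.7 CPM, with intervals that did not overlap those of dendritic cells not mixed. Mixed cells were not removed from these classes, and their part in this and the following differences was not tested. Cyp1b1, a related enzyme, was at 30.0 CPM (17.5–48.1) and 8.68 CPM (2.82–20.2) in members not mixed, against 219.2 and 158.3 CPM in macrophages. With mixed members it came to 107.8 and 282.6 CPM, and other kept cells held 652.1 and 653.5 CPM. Nqo1 had 0 UMIs in both libraries. Tiparp (chromosome 3, 65528410 to 65555518, plus strand), a repressor of AHR that AHR induces, was at 187.4 CPM (153.4–226.6) and 222.2 CPM (185.4–264.2), close to 200.1 and 190.4 CPM in macrophages. Ahrr (chromosome 13, 74211118 to 74292331, minus strand) was at 47.7 CPM (31.4–69.4) with LFD and at 17.4 CPM (8.32–31.9) with HFD, against 32.3 and 17.2 CPM in macrophages and 3.64 and 5.36 CPM in B cells. Its HFD to LFD ratio was 0.364 (0.157–0.775) in dendritic cells, from 27 and 10 UMIs (0.503, 0.268–0.924, from 30 and 19 UMIs with mixed members), and 0.533 (0.386–0.734) in macrophages. Of the 11 AHR pathway genes compared with macrophages, 1 (Ahr) was higher and 3 (Cyp1a1, Cyp1b1 and Nqo1) were lower in both libraries, shares near the background of 6.48% and 19.8% of all genes.

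The promoters of Cyp1a1 and Ahrr are shown because the first gene drives the reporter and the second, the AHR repressor, held the most copies of the AHR core among the 6 promoter windows searched. Bases outside these windows were not searched, so the counts are not those of whole promoters. Capitals mark GCGTG, the core to which AHR with ARNT binds, or its reverse complement CACGC. Each window holds 300 bases, from 250 before to 50 after the start of the gene, taken from RefSeq for GRCm38.p6, at chr9:57697363-57697662 on the plus strand and chr13:74292282-74292581 on the minus strand. RefSeq and GENCODE give Ahrr the same start but not Cyp1a1, whose window lies inside the longer GENCODE gene given above.
Cyp1a1: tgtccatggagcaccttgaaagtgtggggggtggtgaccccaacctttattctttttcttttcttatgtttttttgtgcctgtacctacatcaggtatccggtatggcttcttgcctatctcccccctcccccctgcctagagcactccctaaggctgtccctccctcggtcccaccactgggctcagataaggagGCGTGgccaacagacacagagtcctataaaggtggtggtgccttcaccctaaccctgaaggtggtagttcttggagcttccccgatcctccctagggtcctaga
Ahrr: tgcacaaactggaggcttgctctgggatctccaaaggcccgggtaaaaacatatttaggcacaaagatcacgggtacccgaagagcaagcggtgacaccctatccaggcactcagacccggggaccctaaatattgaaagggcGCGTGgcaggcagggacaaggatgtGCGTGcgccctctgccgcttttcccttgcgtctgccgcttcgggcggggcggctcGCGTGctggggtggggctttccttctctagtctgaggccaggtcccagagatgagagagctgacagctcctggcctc
The letters occurred 1 time in the Cyp1a1 window, 3 times in that of Ahrr, 1 time each in those of Tiparp, Cyp1b1 and Arnt and 0 times in that of Nqo1. Of 32851 promoter windows of the same length, 32.4% held them at least once, so a match is a description and not a binding site.

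**Figure D3:**
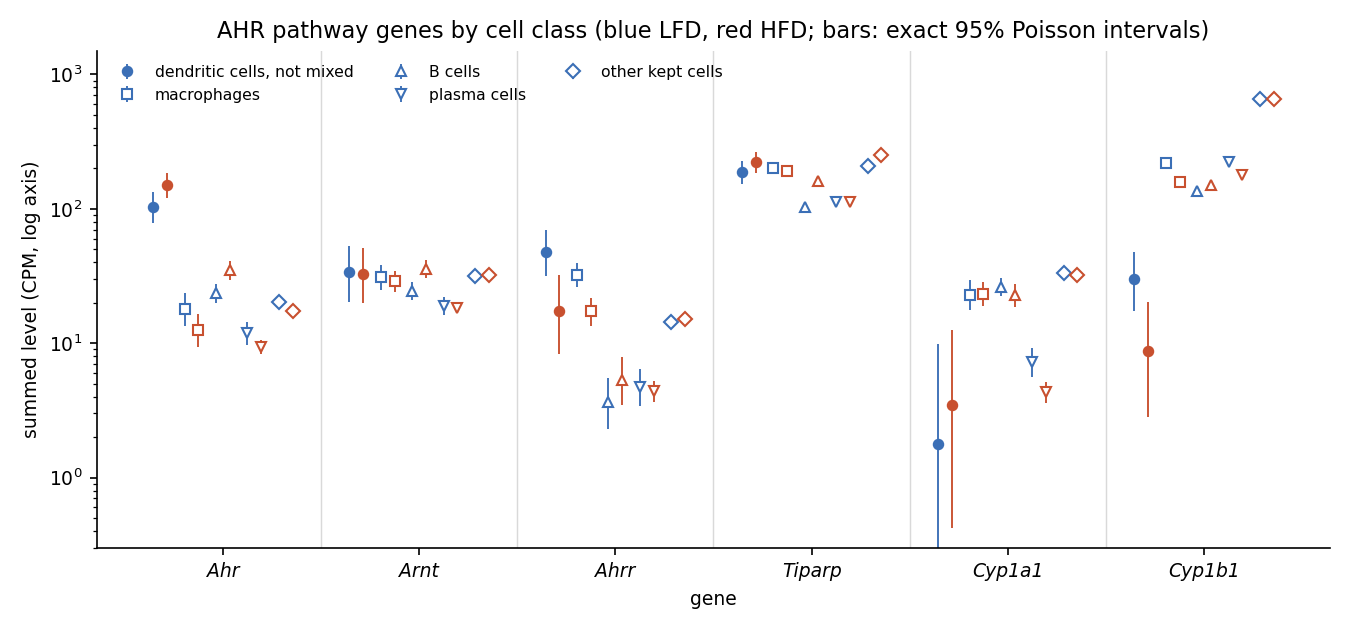
Summed levels in CPM (log axis) of 6 AHR pathway genes in dendritic cells without mixed members (filled circles) and in 4 other classes (open symbols), with exact 95% Poisson intervals, blue for LFD and red for HFD. Ahr in dendritic cells, at 102.5 and 149.3 CPM, lies above the 4 classes shown, while Cyp1a1 and Cyp1b1 lie below the macrophages, B cells and other kept cells. Mixed cells were not removed from the 4 classes.

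Of 7 genes of tryptophan use, a source of AHR ligands, 3 (Kynu, Kmo and Il4i1) were higher and 2 (Tdo2 and Wars) lower than in macrophages, with 6.48% and 19.8% of all genes as background. Il4i1 had 80 LFD and 33 HFD UMIs, mostly in the few Ccr7-like cells, and 1 HFD cell held 20 of the 33. Tdo2 had 3 LFD and 0 HFD UMIs, and 35 and 31 with mixed members. Kynu and Kmo, of the kynurenine route, were 53.3 and 22.1 times their macrophage levels in LFD and 42.7 and 21.02 times in HFD. Kynu stood at 114.9 (LFD) and 50.3 CPM (HFD) (ratio 0.438, 0.273–0.689), and Kmo was at 111.4 and 104.2 CPM (0.935, 0.646–1.35). Ido1, a marker of some cDC1, had 1 UMI in LFD and 0 UMIs in HFD, with an upper limit of 6.40 CPM.

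Dendritic cells made up 0.842% (0.674–1.04) of kept cells in LFD and 0.972% (0.775–1.20) in HFD, an HFD to LFD ratio of 1.155 (0.844–1.58), and 0.724% and 0.797% without mixed members (1.10, 0.779–1.55). With plasma cells left out of the denominator, the shares were 0.890% and 1.22% (ratio 1.37, 1.00–1.87). Requiring 3 of the 12 genes gave 1.60% and 2.55%, a ratio of 1.59, and choosing the cells after thinning to 2000 UMIs gave 0.292% and 0.448%, a ratio of 1.54. Because cells were sorted on eYFP, these are shares of marked cells and not of the tissue.

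Between the diets, 253 of 5532 genes (4.57%) were at least 2-fold higher in HFD and 208 (3.76%) at least 2-fold lower, among genes with at least 20 UMIs over both libraries and without mixed members. With mixed members it was 485 of 7301 (6.64%) and 213 (2.92%). Of the 12 genes with the highest ratios over all members, Pnoc, Pkhd1l1, Upk3b, Lgals7, Oaf, Tnfrsf11b, Dpysl3, Loxl2 and Nckap1 each had 92.7% or more of their UMIs in mixed members. In the 12 lowest the same was seen for Itm2a, at 91.9%, and Cxcl2, at 95.4%. The genes below are those with the largest ratios without mixed members.

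The highest ratio was that of Cadm1 (chromosome 9, 47530173 to 47857637, plus strand), an adhesion molecule and a known cDC1 marker. It had 3 UMIs in 3 LFD cells, 5.30 CPM (1.09–15.5), and 93 UMIs in 22 HFD cells, 161.4 CPM (130.3–197.8), a ratio of 30.4 (10.1–150.3). Egr3 (chromosome 14, 70077203 to 70082614, plus strand), an early growth response factor, had 6 and 87 UMIs, 10.6 and 151 CPM (14.2, 6.28–39.9). Ccr2 (chromosome 9, 124101950 to 124113557, plus strand), the receptor that brings monocytes and pre-dendritic cells into tissue, had 15 UMIs in 10 LFD cells and 122 UMIs in 33 HFD cells (7.99, 4.66–14.7). Its level in macrophages was 158.1 and 149.6 CPM (0.946, 0.837–1.07). The list went on with Jdp2, an AP-1 repressor (6.87), Fabp5, a fatty acid binding protein (6.21), Palld (4.91), Sept3 (4.35), Bcl6, a repressor used by cDC1 (4.22), the scavenger receptor Cd36 (4.02), Fgfr1 and Trib1 (both 3.93) and Rtl8b (3.89). With mixed members the ratio was 1.21 for Cd36, under 2-fold, 2.38 for Fabp5, 2.27 for Palld, 3.71 for Jdp2, 8.92 for Egr3 and 2.18 for Trib1. Fabp5 came from Ccr7-like cells, with 154 of its 158 HFD UMIs in 3 cells, and in cDC1-like cells it had 7 and 4 UMIs. Of these 12 genes, 3 (Cadm1, Cd36 and Fgfr1) were also at least 2-fold higher in macrophages and 0 lower, 2 were higher and 1 lower in B cells, and 1 was higher and 1 lower in other kept cells. Over all genes the shares higher and lower were 3.47% and 1.94% in macrophages, 2.62% and 2.9% in B cells and 5.15% and 4.03% in other kept cells.

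The lowest ratios were those of Tcn2, a cobalamin carrier, with 51 LFD and 3 HFD UMIs (0.0578, 0.0115–0.179), the surface protein Plet1, with 61 and 4 UMIs (0.0644, 0.0170–0.174), and Ass1, of arginine synthesis, with 47 and 4 UMIs (0.0836, 0.0219–0.229). Plet1 UMIs came from 18 LFD and 2 HFD cells. Ifitm1 (chromosome 7, 140967221 to 140969825, plus strand), an interferon-inducible membrane protein, had 2613 UMIs in 66 LFD cells and 348 UMIs in 25 HFD cells, 4619 and 604.1 CPM (0.131, 0.117–0.146). Ifitm1 was also lower in HFD macrophages (0.282) and other kept cells (0.262), though at much lower levels of 302.2 and 74.9 CPM in LFD. Klrd1, a lectin-like receptor shared with NK cells, had 84 and 21 UMIs (0.246, 0.145–0.3998). Saa3 (0.192) and Slpi (0.237) had 93.98% and 95.5% of their UMIs in mixed members and were abundant in other kept cells, where Saa3 was at 11643.3 (LFD) and 2535 CPM (HFD), a ratio of 0.218. The others were Hist1h2ap, AY036118, Ly6a, Gm26917 and Mpzl2, with ratios of 0.196 to 0.270. With mixed members the ratio was 0.815 for Ly6a, 3.02 for Slpi, 0.498 for Saa3, 0.459 for Gm26917 and 0.186 for Tcn2. For Gm26917, 96 of the 123 LFD UMIs lay in 1 cell, and its ratio was 1.02 (0.546–1.86) without the cells that held Cadm1. Of these 12 genes, 4 were also at least 2-fold lower in macrophages, 2 in B cells and 2 in other kept cells, and 0 were higher in any of the 3 classes. Tcn2 was not one of them, at 1.29 in macrophages.

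**Figure D4:**
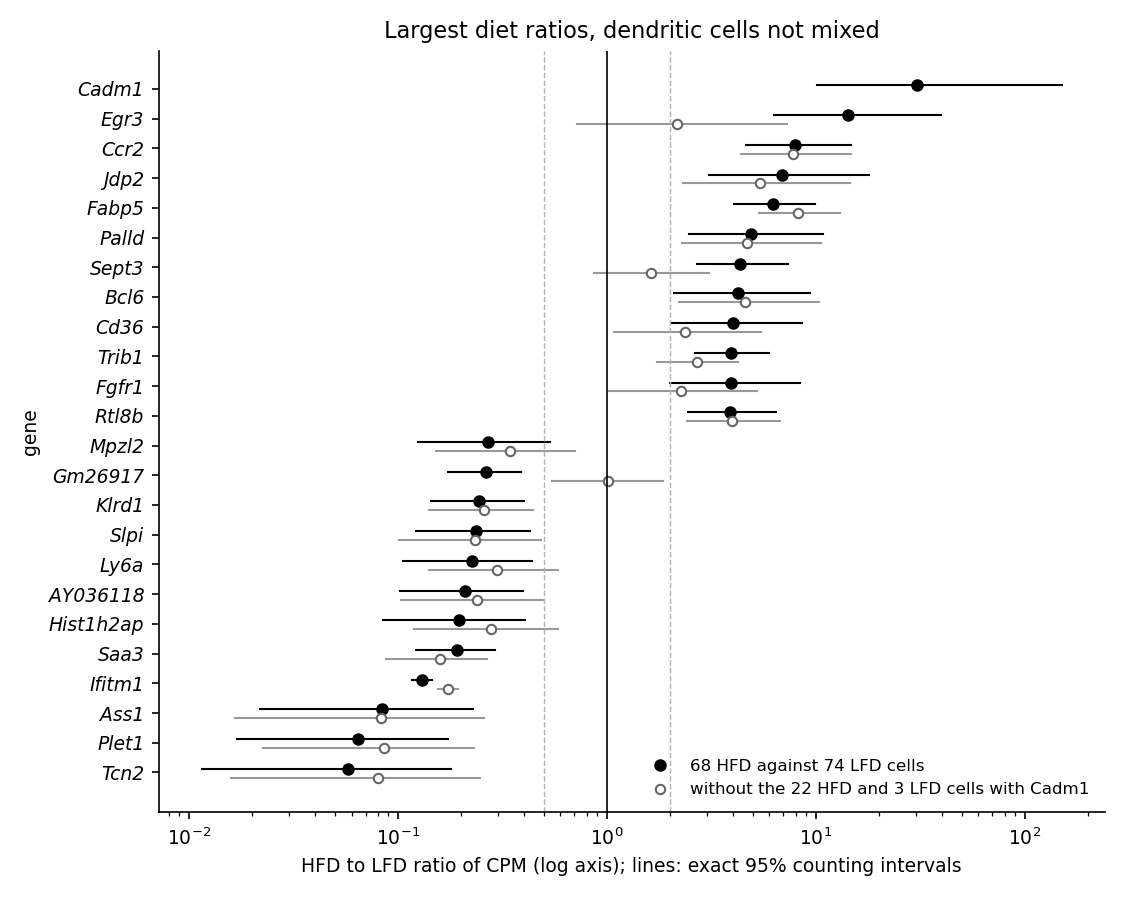
HFD to LFD ratios of CPM (log axis) for the 12 highest and 12 lowest genes of dendritic cells without mixed members, with exact 95% counting intervals (black), and the same without cells that held a Cadm1 UMI (grey). Dashed lines mark 2-fold. Without those cells Egr3 stands at 2.18, Sept3 at 1.63 and Gm26917 at 1.02, while Ccr2 is at 7.74.

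Gene groups are read against the 4.57% of genes that were at least 2-fold higher and the 3.76% that were lower. Of 15 MHC class II genes 0 were at least 2-fold higher or lower, of 18 class I and cross-presentation genes 0 and 1, and of 18 dendritic cell transcription factors 1 (Bcl6) and 0. Chemokine receptors held 2 higher of 7, Ccr2 and Cxcr3 (2 and 23 UMIs, ratio 11.3, 2.79–98.8), and 1 lower, Ccr1 (18 and 7 UMIs). Among 7 chemokines, 3 were higher, which were Ccl2 with 7 and 35 UMIs, Ccl6 with 0 and 21 UMIs, and Ccl5 with 4 and 70 UMIs that came from 1 and 2 cells. Of the 35 Ccl2 UMIs 16 lay in 1 cell, and without the cells that held Cadm1 it had 7 and 7 UMIs (1.31, 0.391–4.36). With mixed members the ratios of Ccl2 and Ccl5 were 1.16 and 1.55, under 2-fold, and 3 of 11 chemokines were higher and 3 lower. Ccl17 (135 and 50 UMIs) and Ccl22 (42 and 19 UMIs), both attractants of Ccr4+ T cells, were lower. For Ccl17, 1 LFD cell held 60 of the 135 UMIs and 1 HFD cell 39 of the 50, and within Ccr7-like cells it had 14 and 39 UMIs, so its ratio rests on single cells. The Ccr7 list had 4 of 7 genes lower and 0 higher, and with mixed members 2 of 8 were lower. Ccr7-like cells numbered 8 and 3, and their part in these ratios was not tested. In the cDC1 list Cadm1 was higher, and so was Clec9a, a gene of the rule. As a description only, Clec9a had 61 UMIs in 30 of 74 LFD cells and 149 UMIs in 54 of 68 HFD cells, and Xcr1, also of the rule, had 111 and 198 UMIs. Of 5 interferon-stimulated genes 0 were higher and 2 lower. Of 9 AHR pathway genes 0 were higher and 2 lower (Ahrr and Cyp1b1), and with mixed members 2 of 10 were higher and 1 lower, Cyp1b1 having 80 LFD and 264 HFD UMIs. For Ahr the ratio was 1.46 (1.03–2.07), and 1.31 (0.952–1.81) with mixed members. Its direction depended on the rule, since requiring 3 of the 12 genes gave 45.7 CPM (LFD) and 39.8 CPM (HFD).

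Several of the largest differences met in the same cells. Among cDC1-like HFD cells, 22 of 62 (35.5%, 23.7–48.7) held a Cadm1 UMI, against 3 of 59 in LFD (5.08%, 1.06–14.2). At 2000 UMIs per cell the shares were 23.4% and 1.23%, against 2.171% and 0.589% in macrophages and 0.0204% and 0.106% in B cells (median depths of 8750 and 7787, 6846 and 4906, and 4328 and 4322 UMIs). In HFD, Egr3 was detected in 18 of the 22 cells with Cadm1 and in 6 of the 40 without, at 472.6 CPM (with) and 27.2 CPM (without). Sept3 was at 417.4 and 67.9 CPM, the nuclear receptor Nr4a3 at 429.7 and 67.9 CPM, Egr2 at 171.9 and 2.72 CPM, Olfm1 at 288.5 and 70.6 CPM, and the Fc receptor chain Fcer1g at 497.2 and 78.8 CPM. All 22 held Clec9a, a gene of the rule and so only a description, at 460.4 CPM against 201 CPM. Ahr was at 239.4 and 125 CPM and seen in 18 of 22 and 24 of 40 cells, while Ahrr had 0 UMIs in the 22 cells and 10 UMIs in the 40. Ifitm1 was at 24.6 and 508 CPM, and the retinoic acid hydroxylase Cyp26b1 at 18.4 and 62.5 CPM. Dendritic cell genes went in different directions. Wdfy4 was at 902.3 and 899.1 CPM and Batf3 at 153.5 and 160.3 CPM, Tlr12 was at 61.4 and 114.1 CPM, and the protease inhibitor Cst3 was at 27130.5 and 16038.0 CPM. Of genes of the rule, given as a description, Itgae was at 276.2 and 532.4 CPM and Naaa at 1338 and 855.7 CPM. The 22 cells were not deeper, with a median of 7407 UMIs against 9268, and 1 of them was cycling. Of the immediate early genes, Dusp1 (472.6 and 78.8 CPM), Egr1 (343.7 and 35.3 CPM) and Nr4a1 (650.6 and 249.9 CPM) were higher with Cadm1 and Fos was not (484.9 and 801.4 CPM). The 3 LFD cells with Cadm1, with few UMIs of each gene, mostly did not share it. Egr3, Egr2, Fcer1g and Clec9a were at 0 UMIs in them and Ahrr was seen in all 3. Sept3 was at 38.2 CPM against 42.0 CPM in LFD cells without Cadm1, Nr4a3 at 38.2 against 46.4 CPM, Egr1 at 38.2 against 66.3 CPM, Nr4a1 at 152.8 against 161.3 CPM and Ahr at 76.4 against 117.1 CPM. Olfm1 was at 191 against 39.8 CPM, Dusp1 at 191 against 72.9 CPM, Ifitm1 at 1261 against 3826 CPM and Cyp26b1 at 0 against 110.5 CPM. The split by Cadm1 and the genes given for it were chosen after their values were seen, Cadm1 is itself a gene of the cDC1 list, and all 22 cells came from 1 library. In a clustering of all members, which used these genes, a cDC1 cluster led by Cadm1, Egr3 and Sept3 held 0 LFD and 19 HFD cells and the largest cDC1 cluster 46 and 36.

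**Figure D5:**
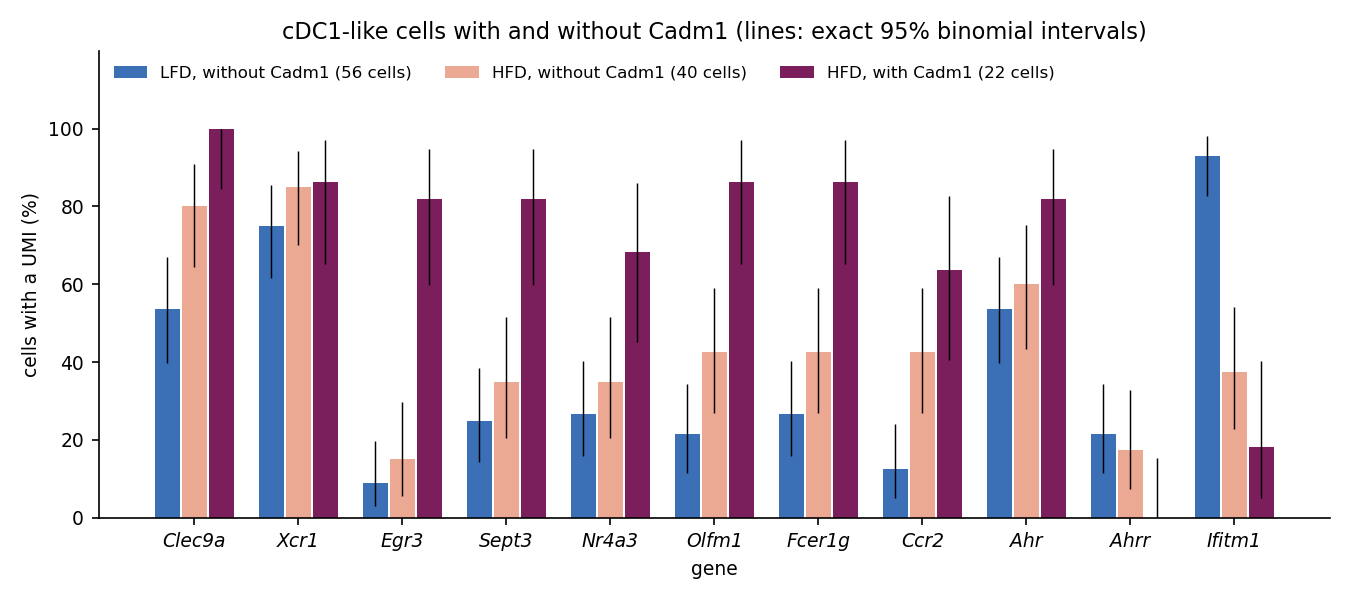
Percent of cDC1-like cells (without mixed members) with a UMI of each gene, for 56 LFD and 40 HFD cells without Cadm1 and 22 HFD cells with Cadm1, with exact 95% binomial intervals. Egr3 was detected in 81.8% of HFD cells with Cadm1 against 15% of those without, and Ahrr in 0% against 17.5%. Clec9a and Xcr1, also shown, are genes of the rule.

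With the cells that held Cadm1 left out, 203 of 5036 genes were at least 2-fold higher in HFD and 169 lower. Of the 253 higher genes above, 119 were still at least 2-fold higher, and of the 208 lower genes, 116 were still lower. Ccr2 (7.74), Jdp2 (5.41) and Bcl6 (4.57) were among the former. Egr3 had 6 and 10 UMIs (2.18, 0.717–7.29), the ratio of Sept3 was 1.63 (0.871–3.10), that of Ahr 1.10 (0.728–1.65) and that of Ahrr 0.568 (0.241–1.24).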

How the data were processed

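Live eYFP+ cells of the gWAT stromovascular fraction were captured with a droplet-based 3′ kit, 1 library per diet. The deposited matrices hold raw UMI counts, whole numbers per gene and barcode, which the authors made with Cell Ranger 4.0.0 on mm10, per the submitters' processing notes. Barcodes with 500 to 40000 UMIs, at least 100 genes and under 12.5% mitochondrial UMIs were kept, as in the study; its doublet removal and integration were not repeated, and Scrublet scores serve as an alternative. All 86 LFD and 83 HFD members had at least 2000 UMIs. Counts were summed over cells and scaled to CPM, with exact Poisson intervals, Clopper-Pearson intervals for shares and exact conditional binomial intervals for ratios (numpy 2.4.6, scipy 1.17.1, scanpy 1.11.5 for clustering). With 1 library per diet there was no test. A gene counts as higher or lower from 2-fold, with at least 20 UMIs over both groups and a count of 0 set to 3. Comparisons with macrophages (3 or more of C1qa, C1qb, C1qc and Pf4, and Adgre1 or Csf1r) and B cells (3 or more of Cd79a, Ms4a1, Pax5 and Bank1, and under 3 of Jchain, Mzb1, Sdc1, Derl3 and Prdm1) had to pass in both libraries. Shares at 2000 UMIs are means over all draws. Subsets needed 3 of 10 genes and a lead of 1. Named diet genes are the 12 highest and 12 lowest ratios with at least 50 UMIs and detection in 10% of the cells of a library, leaving out mitochondrial, ribosomal, immunoglobulin and sex-linked genes and those of the rule. Of 32285 gene IDs, 32235 were found in GENCODE M21, which gave the positions. The ratio scripts were checked on simulated counts. Members and gene lists were chosen with earlier results of these data known; mixed members, the cycling threshold and the Cadm1 split were added after the data were seen. The lipid handling list between the diets is not reported here.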

Additional observations from a re-analysis of the deposited data

Results flagged for a closer look

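One gene of the fixed lists had HFD to LFD ratios that pointed in opposite directions in dendritic cells and in another class, each at least 2-fold and with an interval that excludes 1. Ccl22 had 42 LFD and 19 HFD UMIs in dendritic cells without mixed members, a ratio of 0.444 (0.244–0.781), and 77 and 298 UMIs in B cells, a ratio of 5.25 (4.07–6.83). The difference between these ratios was not tested, because each diet had 1 library. Nearly all dendritic cell UMIs of Ccl22 (40 and 17) lay in Ccr7-like cells, which numbered 8 and 3.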

How the results depend on the processing

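Of the results that answer a comparison, 74 alternative values stayed within counting error or within 1.5 times the count and 35 moved. Requiring 3 of the 12 genes gave shares of 1.60% (LFD) and 2.55% (HFD), a ratio of 1.59, cDC1-like shares of 39.0% and 31.6%, Ahr at 45.7 and 39.8 CPM, and 350 genes lower in HFD, so that the cDC1-like share and Ahr were then lower in HFD than in LFD. Requiring 5 gave cDC1-like shares of 85.1% and 93.2% and Ahr at 139.5 CPM in HFD. Leaving plasma cells out gave 1.22% in HFD. Thinning to 2000 UMIs gave shares of 0.292% and 0.448%, a cDC1-like share of 59.3% in LFD, an Ahr UMI in 16.4% and 24.1% of cells, 115 genes higher and 113 lower, and 8 and 8 of the listed genes. Without mixed members the cDC1-like share in HFD was 91.2%, Ahr in HFD 149.3 CPM, 253 genes were higher in HFD, and 1825 and 1305 genes were lower than in macrophages and B cells. Mean per-cell CPM gave Ahr at 150.2 CPM in HFD. A minimum of 1 UMI in each library gave 1279 and 899 genes, a minimum of 50 UMIs 159 and 65, with 7 and 10 listed genes, and cDC1-like members alone gave 140 lower genes and 7 lower listed genes. Of 331 alternative ratios of 38 named genes, given where a library held more than 3 UMIs, 229 stayed within counting error, 99 moved and 3 reversed: Slpi without mixed members (0.237), and in 1 thinned draw Nckap1 (0.518) and Ifitm6 (1.04). Without mixed members Lgals7, Tnfrsf11b, Dpysl3 and Nckap1 had at most 3 UMIs in either library, so they have no ratio there. Median-ratio scaling shifted all ratios by -0.04 on the log2 scale. No paired analysis was possible because each diet had 1 library, which also leaves no replicate to leave out. Too few cDC2-like cells (2 per library) were found to run them alone or against cDC1-like cells.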
